A study of Mus musculus with 2 samples.

Results

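The leukaemia inhibitory factor (LIF) receptor and Stat3 pathway was followed through 8 genes in RNA-seq of mouse embryonic stem (ES) cells. They are the receptor chains Lifr and Il6st, the kinase Jak1, the transcription factor Stat3, the phosphatase Ptpn11, and the feedback and target genes Socs3, Pim1 and Pim3. Members were the rows of the deposited expression lists whose probe name was 1 of these 8 gene symbols. All 8 were found once, among 26127 probes. For WT and G34R ES cells 1 RNA-seq library each was made. There are therefore no replicates, and no p-value is given. WT cells were unmodified (H3f3a +/+; H3f3b +/+). G34R cells carried 1 H3f3a allele with the histone H3.3 G34R substitution and an intact H3f3b gene (H3f3a +/G34R; H3f3b +/+). In the mutant allele, Cre recombination had placed the mutant coding sequence under the endogenous H3f3a promoter, and targeted clones were selected. Both lines were of strain 129S1/SvImJ, were below passage 20, and were grown with LIF in medium with 15% foetal calf serum and β-mercaptoethanol. The medium thus supplied the ligand of this pathway to both lines. With 1 library each, genotype, clone, culture and library preparation cannot be told apart.

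LIF is a cytokine of the interleukin-6 family. It binds Lifr, which pairs with Il6st (gp130), the signalling chain that the whole cytokine family shares. Jak kinases held on these chains phosphorylate them and Stat3, which enters the nucleus and activates its target genes. In mouse ES cells grown with serum this route sustains self-renewal, and Socs3, itself a Stat3 target, shuts it down again by blocking the kinase and receptor. Ptpn11 docks on the same receptor and passes the signal to the Ras and MAP kinase branch.

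None of the 8 genes differed by 2-fold between the libraries. All were expressed in both, from 6.22 RPKM (Jak1 in WT cells) to 58.29 RPKM (Pim3 in G34R cells), and all passed the filter of at least 0.25 RPKM in 1 sample. RPKM scales the reads of a gene by transcript length and library size. Of 13366 probes that passed, 5.79% were over 2-fold higher in G34R cells and 9.64% over 2-fold lower. At 1.5-fold these shares were 13.3% and 18.2%, and again 0 of the 8 genes was past the threshold in either direction. Instead 7 of the 8 genes were slightly higher in G34R cells and 1, Il6st, was slightly lower. Over all probes tested 44.55% were higher. The median log2 (G34R/WT RPKM) of the 8 genes was 0.21, against −0.07 over all probes tested, whose interquartile range ran from −0.42 to 0.27. Lifr, Pim1 and Pim3 lay above that range and the other 5 genes inside it. All 8 genes had at least 5 RPKM, where large differences were rarer. Among 5867 probes with at least 5 RPKM in 1 sample, 3.09% were over 2-fold higher and 4.07% over 2-fold lower. At 1.5-fold these shares were 9.31% and 10.6%. The interquartile range of these probes ran from −0.31 to 0.23, and Ptpn11 (0.27) also lay above it.

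**Figure D1:**
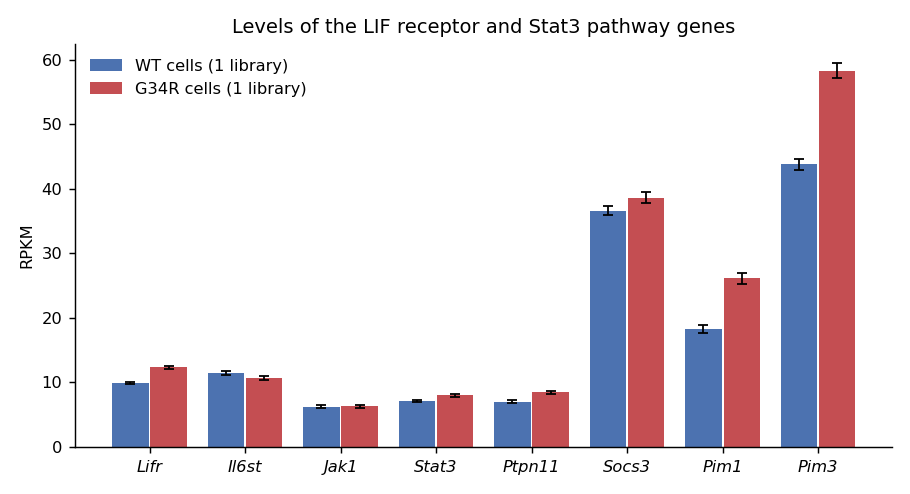
RPKM of the 8 genes in WT cells (blue) and G34R cells (red), 1 library each, with bars from 0 and error bars for the 95% interval of read counting alone. Socs3, Pim1 and Pim3 are the tallest pairs, and Pim3 differs most in RPKM, at 43.75 and 58.29.

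The libraries are summarised briefly. Depth, estimated from the RPKM steps that 1 read makes in short genes, was 88 M reads in WT cells and 72.3 M in G34R cells. Reads per gene and counting intervals below are derived from it and from merged exon lengths. The length used for each probe in the deposited RPKM is not given and was inferred. The intervals cover counting error only and treat each read as independent. The libraries had 12 cycles of amplification and carried no molecular identifiers, so the intervals may be too narrow even for counting. H3f3a was at 8.17 RPKM in WT and 4.89 RPKM in G34R cells. The deposited value does not separate the alleles, and how far it counts reads of the mutant allele was not tested. The 9 ES cell markers were expressed in both lines and summed to 1074 and 880.34 RPKM, with 3 higher and 6 lower in G34R cells. Tdgf1 and Pou5f1 were close to equal (261.25 and 255.61 RPKM, 194.34 and 189.46 RPKM). Nanog (127.07 and 52.24 RPKM) and Zfp42 (180.30 and 16.40 RPKM) were over 2-fold lower in G34R cells. Of those that were higher, named after their values were seen, Utf1 was at 61.89 and 108.56 RPKM and Dnmt3l at 68.30 and 94.92 RPKM. Summed markers of fibroblast feeders were 1.48 and 0.94 RPKM over 7 genes, with Postn, Lum and Dcn at 0 in both. Markers of extraembryonic endoderm summed to 1.91 and 4.07 RPKM over 7 genes, with 5 higher and Afp at 0 in both. Those of trophoblast summed to 0.70 and 2.41 RPKM over 5 genes, with all 5 higher. Eomes made up most of the trophoblast sum (0.43 and 1.88 RPKM). The other trophoblast markers were at most 0.26 RPKM (Hand1 in G34R cells). Markers of primed epiblast and early mesoderm summed to 2.06 and 2.61 RPKM over 5 genes, with 4 higher. Genes of chromosome 8 had a median log2 (G34R/WT RPKM) of 0.36, and all 5 chromosome Y genes that reached 1 RPKM in the WT library were over 2-fold lower. None of the 8 genes lies on chromosome 8, X or Y. The part of these differences in the values below was not tested. In bulk RNA, fewer cells of a type and less RNA per cell cannot be told apart.

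The receptor chains were near equal in WT cells and drew apart slightly in G34R cells. Lifr, the chain that recognises LIF, was at 9.87 RPKM in WT and 12.32 RPKM in G34R cells (8972 and 9201 estimated reads). This is a ratio of 1.25, or 0.32 on the log2 scale (95% counting interval 0.28 to 0.36). Il6st, the shared signalling chain, was at 11.46 RPKM in WT and 10.67 RPKM in G34R cells (5251 and 4017 estimated reads). On the log2 scale G34R over WT was −0.10 (counting interval −0.16 to −0.04), the only value of the 8 genes below 0. The order of the chains therefore switched. The ratio of Lifr to Il6st RPKM, which does not depend on how the libraries were scaled, was 0.861 in WT cells and 1.16 in G34R cells. Relative to its own chromosome Il6st did not stand apart, since the median log2 (G34R/WT RPKM) of expressed genes on chromosome 13 was also −0.10. On chromosome 15 that median was 0.00, and the log2 value of Lifr stayed at 0.32 when it was taken off.

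Lifr is encoded on the plus strand of chromosome 15 in mm9, from 7079559 to 7147489 (ENSMUSG00000054263.5), with 3 transcripts that merge to 10330 bp of exon. Il6st is encoded on the plus strand of chromosome 13, from 113265216 to 113297068 (ENSMUSG00000021756.5), with 1 annotated transcript of 5207 bp. The RefSeq start of Il6st lies 10938 bp upstream of this span, so reads from the first exon of that longer model are not in its RPKM.

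Among chains that recognise a ligand of the family, Lifr made up most of the RNA in both lines. It held 89.3% of the summed RPKM of Lifr, Osmr, Il6ra, Il11ra1 and Cntfr in WT cells and 75.4% in G34R cells. The smaller share came with a higher Lifr level. Cntfr, the ciliary neurotrophic factor receptor, was at 0.56 RPKM in WT and 3.43 RPKM in G34R cells, and its share went from 5.07% to 21.0%. Osmr, Il6ra and Il11ra1 together added little in either line.

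The kinase, the transcription factor and the phosphatase were expressed at like levels, and their differences between the lines were small. Jak1, the main kinase on Il6st, was at 6.22 RPKM in WT and 6.30 RPKM in G34R cells (3956 and 3292 estimated reads). On the log2 scale G34R over WT was 0.02, with a counting interval of −0.05 to 0.09, which included 0. That reading holds for the deposited scaling, since the log2 value of Jak1 was 0.07 when centred on the median. Stat3, the factor that carries the signal to the nucleus, was at 7.15 RPKM in WT and 7.97 RPKM in G34R cells (5994 and 5490 estimated reads). Its log2 value was 0.16 (counting interval 0.10 to 0.21). Ptpn11, also known as Shp2, was at 7.02 RPKM in WT and 8.45 RPKM in G34R cells (4628 and 4577 estimated reads). Its log2 value was 0.27 (counting interval 0.21 to 0.33), the largest of these 3 genes and at the upper edge of the interquartile range of all probes. Stat3 and Ptpn11 had overlapping counting intervals in WT cells (6.97 to 7.33 and 6.82 to 7.23 RPKM) and separate ones in G34R cells (7.76 to 8.18 and 8.21 to 8.70 RPKM). The ratio of Stat3 to Jak1 RPKM was 1.15 in WT cells and 1.27 in G34R cells. Centred on their own chromosomes, the log2 values were 0.10 for Jak1, 0.19 for Stat3 and 0.36 for Ptpn11.

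Jak1 is encoded on the minus strand of chromosome 4 in mm9, from 100824972 to 100937887 (ENSMUSG00000028530.8), and its 8 transcripts merge to 7227 bp. Stat3 is encoded on the minus strand of chromosome 11, from 100746412 to 100800854 (ENSMUSG00000004040.10), with 14 transcripts and 9527 bp. Its 3′ end overlaps Stat5a on the opposite strand by 72 bp, and counting was strand-specific. Ptpn11 is encoded on the minus strand of chromosome 5, from 121580542 to 121641406 (ENSMUSG00000043733.8), with 4 transcripts and 7492 bp. Merged exons can exceed any single RNA and so lower the RPKM. Per length of the longest protein-coding transcript, Jak1 was at 9.16 and 9.28, Ptpn11 at 9.38 and 11.3, and Stat3 at 11.3 and 12.6 RPKM in WT and G34R cells. On that scale Stat3 was above Lifr in WT cells (10.6 RPKM) and below it in G34R cells (13.2 RPKM). The order of these middle levels thus rests on the transcript length used.

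By deposited RPKM, Stat3 was first in its family in both lines and Jak1 was level with Tyk2. Ptpn11 was second in WT cells and first in G34R cells. These ranks may rest on the transcript length used. Per longest protein-coding transcript, Jak1 was at 9.16 and 9.28 RPKM and Ptpn11 at 9.38 and 11.3 RPKM in WT and G34R cells. Tyk2, Stat6 and Ptpn2 were not put on that scale. Jak1 held 37.2% of the summed RPKM of the 4 Jak kinases in WT cells and 37.5% in G34R cells, close to Tyk2 (35.3% and 37.4%). Jak2, which also binds Il6st, held 8.72% and 3.63%. Stat3 was the most abundant of the 7 Stat genes in both lines, with 36.1% and 38.1%, followed by Stat6 (4.75 and 4.62 RPKM). Ptpn11 held 30.1% of the summed RPKM of Ptpn1, Ptpn2, Ptpn6 and Ptpn11 in WT cells and 34.8% in G34R cells. It was second to Ptpn2, a phosphatase of Jak kinases, in WT cells (39.1%) and first in G34R cells, where Ptpn2 was at 7.03 RPKM.

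**Figure D2:**
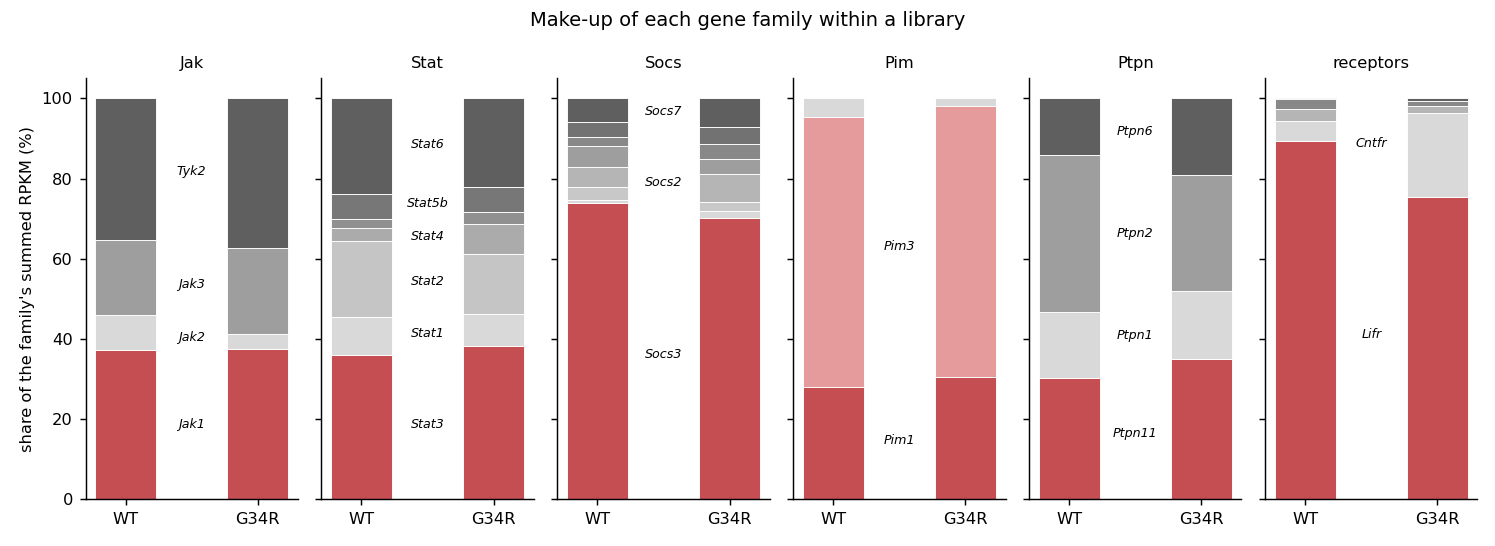
Share of the summed RPKM of each gene family (per cent) in WT and G34R cells, 1 library each, with the 8 genes' own members in red and the other family members in grey. Receptors are the chains that recognise a ligand, and only genes with over 6% in 1 library are named. Socs3, Pim3 and Lifr hold most of their families in both bars, and the share of Lifr is 89.3% in WT cells and 75.4% in G34R cells.

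The feedback and target genes were the most abundant of the 8, and both Pim genes showed the largest differences. Socs3, which blocks Jak kinases and Il6st, was at 36.59 RPKM in WT and 38.56 RPKM in G34R cells (9309 and 8060 estimated reads). On the log2 scale G34R over WT was 0.08 (counting interval 0.03 to 0.12), the smallest of the 3. Pim1, a serine/threonine kinase that promotes survival and growth, was at 18.21 RPKM in WT and 26.09 RPKM in G34R cells (3160 and 3720 estimated reads). Its log2 value was 0.52 (counting interval 0.45 to 0.59), a ratio of 1.43 and the largest of the 8 genes. Pim3, a kinase of the same family, was at 43.75 RPKM in WT and 58.29 RPKM in G34R cells (9321 and 10203 estimated reads). Its log2 value was 0.41 (counting interval 0.37 to 0.45), a ratio of 1.33. The counting intervals of Pim1 and Pim3 lay well away from 0, but differences of this size were common. Among 5867 probes with at least 5 RPKM in 1 sample, 11.2% had a higher ratio than Pim1, 15.1% than Pim3, 19.7% than Lifr and 37.2% than Socs3. For the other 4 genes the share ran from 22.1% (Ptpn11) to 54.3% (Il6st).

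The 3 genes also differed relative to each other and to Stat3. Per unit of Stat3 RPKM, Pim1 went from 2.55 in WT cells to 3.27 in G34R cells and Pim3 from 6.12 to 7.31, while Socs3 went from 5.12 to 4.84. The ratio of Socs3 to Pim3 RPKM was 0.836 in WT cells and 0.662 in G34R cells. The 2 Pim genes stayed closer to each other, with a log2 difference of −0.10 in the ratio of Pim3 to Pim1 RPKM. Socs3 held 74.0% of the summed RPKM of 8 genes of the Socs family, Cish included, in WT cells and 70.2% in G34R cells. Pim3 held 67.3% and 67.7% of the Pim family, Pim1 28.0% and 30.3%, and Pim2 4.65% and 1.95%.

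**Figure D3:**
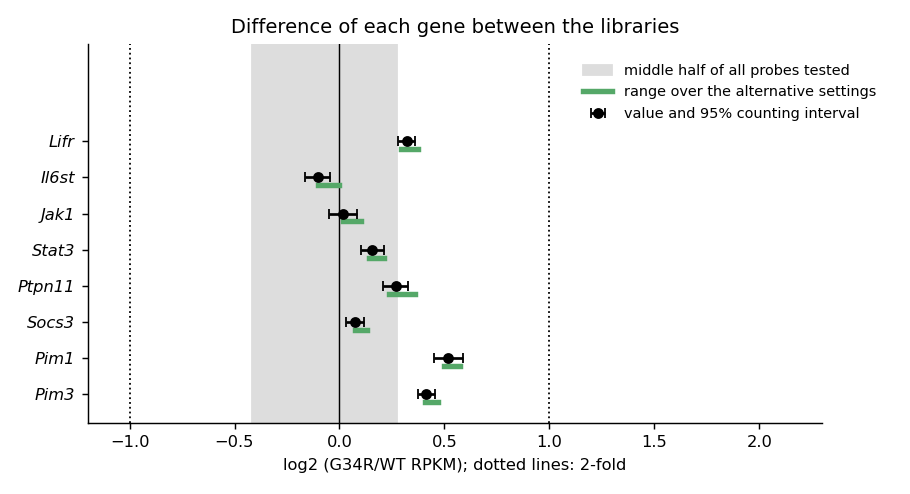
Log2 (G34R/WT RPKM) of the 8 genes (black points) with the 95% interval of read counting, the range over the alternative settings (green) and the interquartile range of all probes tested (grey band). Lifr (0.32), Pim1 (0.52) and Pim3 (0.41) lie above the band, Il6st (−0.10) lies below 0, and all lie inside the dotted 2-fold lines.

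Socs3 is encoded on the minus strand of chromosome 11 in mm9, from 117827393 to 117831361 (ENSMUSG00000053113.3), with 3 transcripts that merge to 2891 bp. Pim1 is encoded on the plus strand of chromosome 17, from 29627757 to 29632390 (ENSMUSG00000024014.6), with 1 transcript of 1972 bp. A lincRNA on the opposite strand, Gm16912, overlaps 468 bp of its exons (23.7%). Pim3 is encoded on the plus strand of chromosome 15, from 88692616 to 88696150 (ENSMUSG00000035828.9), with 2 transcripts that merge to 2421 bp. Nearby genes had values of their own. Within 1 Mb on each side, the median log2 (G34R/WT RPKM) of genes with at least 1 RPKM was −0.42 around Socs3 (13 genes), −0.18 around Pim1 (19 genes) and 0.18 around Pim3 (23 genes). Around Lifr it was −0.26 (5 genes), around Il6st −0.15 (13 genes), around Jak1 −0.35 (6 genes), around Stat3 0.12 (46 genes) and around Ptpn11 −0.17 (23 genes).

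The bases upstream of a RefSeq start of these 3 genes are shown because Stat3 acts through regulatory sequence of its targets. Stat proteins bind sequences of the form TTCNNNGAA, which reads the same on both strands. All 8 genes had RefSeq promoters (GRCm38.p6) of 250 bases before and 50 after the start, 10 windows in all, and 1 window held the motif, that of Socs3. It also occurred in 8.30% of all 32851 RefSeq promoters, so 1 in 10 is near the background. In Socs3 the match lay 154 to 146 bases before the start, at chr11:117830826-117830834 of mm9. The 250 bases before each start, placed in mm9 by exact match, are at chr11:117830681-117830930 (minus strand) for Socs3, chr17:29627480-29627729 (plus strand, first of 2 starts) for Pim1 and chr15:88692374-88692623 (plus strand) for Pim3. They read 5′ to 3′, with the motif in capitals.
Socs3: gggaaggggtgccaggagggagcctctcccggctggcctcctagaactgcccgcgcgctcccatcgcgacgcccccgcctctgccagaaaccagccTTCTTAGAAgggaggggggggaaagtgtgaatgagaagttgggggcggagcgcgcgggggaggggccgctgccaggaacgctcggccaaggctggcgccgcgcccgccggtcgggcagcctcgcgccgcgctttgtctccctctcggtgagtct
Pim1: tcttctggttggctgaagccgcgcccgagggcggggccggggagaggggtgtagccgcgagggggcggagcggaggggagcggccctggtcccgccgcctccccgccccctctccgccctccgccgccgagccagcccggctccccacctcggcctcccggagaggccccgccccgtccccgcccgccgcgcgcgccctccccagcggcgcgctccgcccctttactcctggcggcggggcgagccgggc
Pim3: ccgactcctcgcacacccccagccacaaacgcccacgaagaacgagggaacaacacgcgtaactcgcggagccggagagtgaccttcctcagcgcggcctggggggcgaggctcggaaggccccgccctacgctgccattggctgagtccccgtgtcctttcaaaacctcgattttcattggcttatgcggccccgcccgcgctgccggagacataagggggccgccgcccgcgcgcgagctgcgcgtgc
The Socs3 start used here lies 681 bp inside the annotated span, so this window lies within that span and not upstream of it. The Pim1 and Pim3 windows hold no TTCNNNGAA, which says only that these letters are not in these bases. The log2 values were 0.52 for Pim1, 0.41 for Pim3 and 0.08 for Socs3. Any link between the motif and these values was not tested.

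The other genes of the pathway were read from 5 lists of 65 genes, of which 59 had at least 0.25 RPKM in 1 sample. Over 2-fold, 7 of the 59 were higher in G34R cells and 3 lower, which is 11.9% and 5.08% beside 5.79% and 9.64% of all probes. Their median log2 (G34R/WT RPKM) was 0.12. The counts depend on low values. With at least 5 RPKM in 1 sample, 3 of 25 genes were over 2-fold higher and 0 lower, beside 3.09% and 4.07% of 5867 probes. Of these 3, Gbx2 reached 5 RPKM in G34R cells only, and Klf5 and Junb sat on the threshold, each at a ratio of 2.01. At 1.5-fold 16 of the 59 genes were higher and 4 lower (27.1% and 6.78%), beside 13.3% and 18.2% of all probes.

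Other ligands and receptors of the family were mostly low. Of 13 genes 8 passed the filter, 2 were over 2-fold higher, 1 was lower, and the median was −0.18. Only 2 of them, Cntf and Cntfr, had at least 1 RPKM in 1 sample, and the median of that pair was 1.90 (log2). Both reached 1 RPKM in G34R cells only, so this filter by itself selected values above 0. Lif itself was at 0.58 RPKM in WT and 0.88 RPKM in G34R cells, so the cells' own ligand RNA was far below that of its receptor. Of the 8 list genes that passed the filter, Cntfr was the most abundant and had the largest log2 value, 2.61 (counting interval 2.35 to 2.89). Cntf, its ligand, was at 0.45 and 1.03 RPKM, a log2 value of 1.19 (counting interval 0.66 to 1.79). The gene that was lower, named after its values were seen, was Osm, which encodes oncostatin M, at 0.65 and 0.22 RPKM.

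The other Jak kinases and Stats differed little on balance. All 9 passed the filter, 1 was over 2-fold higher, 1 was lower, and the median was 0.09. The most abundant was Tyk2, a Jak kinase that also sits on Il6st, at 5.91 RPKM in WT and 6.29 RPKM in G34R cells. Jak2 was at 1.46 and 0.61 RPKM, a log2 value of −1.26 (counting interval −1.48 to −1.04). Stat4 was at 0.67 and 1.57 RPKM, a log2 value of 1.23 and a ratio of 2.34 (counting interval 1.96 to 2.82). In each line Jak2 was several-fold below Jak1, and Stat4 several-fold below Stat3.

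Negative regulators other than Socs3 and Ptpn11 had a median log2 value of 0.25 over 14 genes, which was −0.38 over the 3 with at least 5 RPKM. The most abundant was Pias2, of a family of inhibitors of Stat proteins, at 18.32 RPKM in WT and 13.17 RPKM in G34R cells. The only gene past 2-fold, named after its values were seen, was Cish, a Socs family gene that Stat5 induces, at 0.34 and 0.99 RPKM, a log2 value of 1.54. Its promoter held 2 motif matches, at bases 1 to 9 and 12 to 20 after the start. It is shown from 10 bases before the start, in GRCm38.p6, as the only scanned window of the listed genes with 2 matches.
Cish: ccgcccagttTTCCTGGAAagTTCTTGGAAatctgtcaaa
Windows were found for 47 of the 65 listed genes, and the rest were not scanned. In all, 5 of 65 windows held a match, in Cish, Sbno2 and Gab1, a share of 7.69% beside 8.30% of all promoters. The Gab1 windows overlap and hold the same site, which is counted in each.

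Stat3 target genes other than Socs3, Pim1 and Pim3 had the highest median of the lists, 0.64 over 13 genes, with 8 above 0 and 5 below. With a pseudocount of 1 this median was 0.38. Over 2-fold, 3 were higher and 1 was lower. Klf5, a factor of the naive pluripotency network, was at 26.08 RPKM in WT and 52.35 RPKM in G34R cells, a log2 value of 1.01 (counting interval 0.95 to 1.06). Gbx2, a homeobox factor that LIF induces, was at 2.75 and 8.34 RPKM, a ratio of 3.03 (counting interval 2.82 to 3.26). Junb, an AP-1 subunit, was at 8.83 and 17.71 RPKM, a ratio of 2.01 (counting interval 1.88 to 2.15). Klf5 and Junb sat on the threshold. Junb lies on chromosome 8, and its log2 value was 0.65 once the median of that chromosome was taken off. The most abundant target, the survival gene Mcl1, was lower in G34R cells, at 83.64 and 65.12 RPKM. The target over 2-fold lower, named after its values were seen, was Pramel7, at 0.81 and 0.10 RPKM. The targets thus differed in both directions, while Socs3, Pim1 and Pim3 were all above 0.

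The Ptpn11 branch, made of adaptors, Ras and MAP kinases and phosphoinositide 3-kinase, held the narrowest range of the 5 lists. Of 16 genes 15 passed the filter, and the median was 0.19, beside 0.27 for Ptpn11. In either direction 0 were past 2-fold, beside 5.79% higher and 9.64% lower of all probes. Of the 15 genes 11 had at least 5 RPKM in 1 sample. Among all probes at that level 3.09% were over 2-fold higher and 4.07% lower, so 0 is near the background. The other lists held 0, 1, 3 and 10 such genes, and the ranges were not compared at like levels. The most abundant was Gab1, the adaptor that binds Ptpn11, at 40.00 RPKM in WT and 47.06 RPKM in G34R cells. Gab1 lies on chromosome 8, and its log2 value of 0.23 was below the chromosome's median of 0.36.

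**Figure D4:**
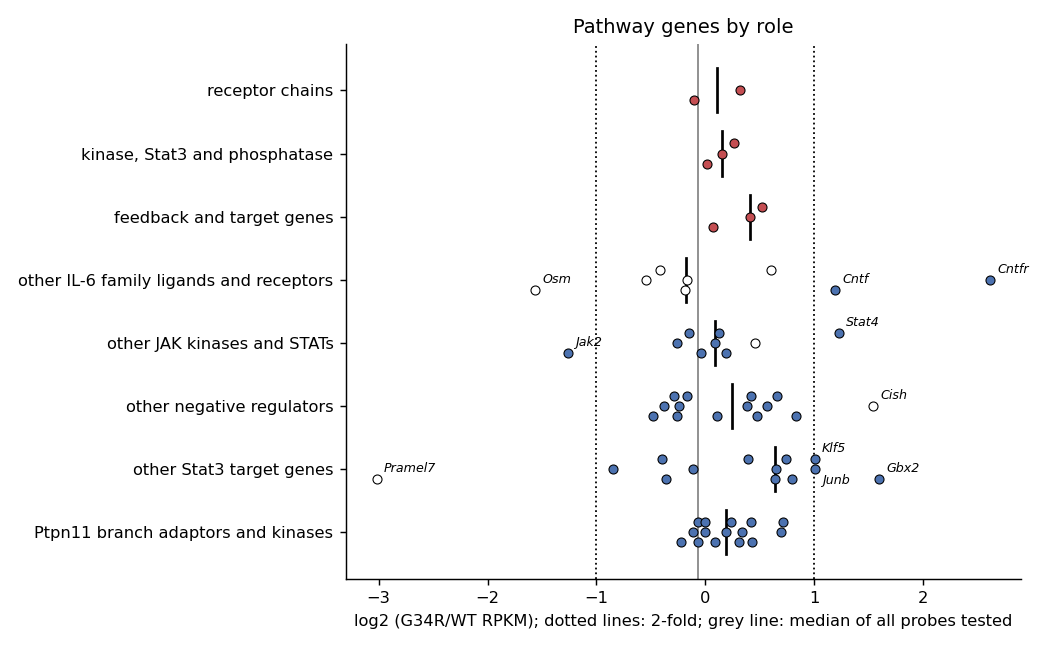
Log2 (G34R/WT RPKM) of the 8 genes (red) and of the other pathway genes (blue, or white under 1 RPKM in both libraries) by role, with black bars for each group's median, a grey line for the median of all probes and dotted lines at 2-fold. Genes past 2-fold are named, and the other Stat3 targets have the highest group median of the 5 lists, 0.64.

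Set among all probes, the 8 genes lay in the upper part of the expression range in both lines. Jak1 was the lowest, with 82.1% of probes below it in WT cells and 82.7% in G34R cells. Pim3 was the highest, with 97.6% and 98.4%. In WT cells the levels ran Jak1, Ptpn11, Stat3, Lifr, Il6st, Pim1, Socs3 and Pim3 from low to high. In G34R cells Stat3 and Ptpn11 had traded places, as had Lifr and Il6st, and the other 4 genes kept theirs. The trade of Stat3 and Ptpn11 rests on the transcript length used. Per longest protein-coding transcript, Stat3 was above Ptpn11 in WT cells (11.3 and 9.38 RPKM) and in G34R cells (12.6 and 11.3 RPKM). Of the neighbours in the order of deposited RPKM, only Ptpn11 and Stat3 in WT cells had overlapping counting intervals. These intervals do not cover the choice of length.

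**Figure D5:**
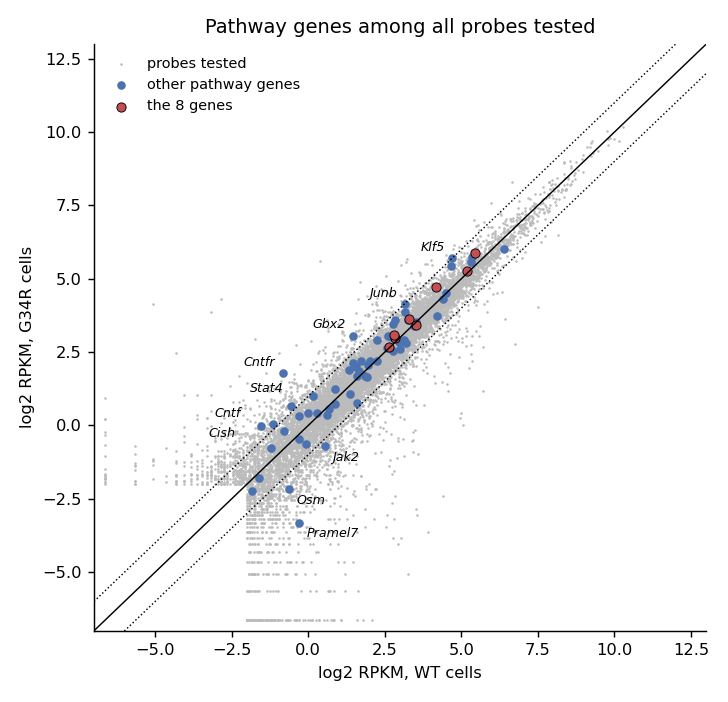
Log2 RPKM in WT cells (horizontal) and G34R cells (vertical) of the 13366 probes tested (grey), with values under 0.01 RPKM set to 0.01, the 8 genes (red) and the other pathway genes (blue). The dotted lines mark 2-fold, all 8 red points lie between them, and the 10 named genes lie outside.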

How the data were processed

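RNA from WT and G34R ES cells was sequenced as stranded total RNA libraries of 50 bp single-end reads, 1 per cell line. Alignment by the authors used STAR 2.4.2a and mm9, both also in the submitters' processing notes. They took primary alignments into Seqmonk and counted them by strand over merged isoforms with length correction. The deposited values are RPKM to 2 decimals. RPKM is relative to each library's total, so a few very high genes move all values.

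From these, log2 (G34R/WT RPKM) was taken after raising lower values to 0.01 RPKM, for probes with at least 0.25 RPKM in 1 sample. With 1 library per group no test was run, and genes were counted past 2-fold. Single-exon genes shorter than 800 bp and holding under 6 reads gave the depth, as the value at which their RPKM became whole reads (71 such genes for WT and 65 for G34R). The length Seqmonk used for each probe was inferred as the merged GENCODE exon length on mm9, at which 99.4% (WT) and 98.9% (G34R) of short multi-exon genes also fell on whole reads. Estimated reads, their intervals and the levels per longest transcript rest on the inferred length. The reads gave exact binomial 95% intervals of the ratio and exact Poisson 95% intervals of the levels. Coordinates come from the same annotation, and 26055 of the probes matched a gene span. On simulated data the depth was recovered to within 0.125%, and 100% of genes changed 3-fold were past 2-fold.

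The members and gene lists were chosen with earlier results of these data known. Named genes are the 8 members and, of each pathway list, every gene past 2-fold with at least 1 RPKM in 1 sample, the gene with the highest mean RPKM, and Lif. Of the marker lists, those with the highest mean RPKM and those past 2-fold with at least 1 RPKM were eligible. Tfcp2l1 and Hras were found as Tcfcp2l1 and Hras1. Promoters were taken from RefSeq (GRCm38.p6). Alternatives were other pseudocounts, filters, scalings and fold thresholds. The work was done in Python 3.11.15 with pandas 2.3.3, SciPy 1.17.1, NumPy 2.4.6 and, for the plots, matplotlib 3.10.9.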

Additional observations from a re-analysis of the deposited data

How the results depend on the processing

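No paired analysis was possible because there was 1 library per group. Under all 12 alternatives of pseudocount, scaling, filter and fold threshold, 0 of the 8 genes was past the threshold in either direction, 7 were above 0 and Il6st was below it. Il6st came closest to 0 when centred on its own chromosome (−0.0002). Rescaling to the same sum of RPKM raised each log2 value by 0.05, as did centring on the median, and a pseudocount of 1 moved them by −0.03 to 0.01.

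The 10 pathway genes past 2-fold depended more on the setting. The count of higher genes was 7 as reported, 2 with a pseudocount of 1, 3 with at least 5 RPKM, 16 at 1.5-fold and 2 at 3-fold. The count of lower genes was 3 as reported, 0 with a pseudocount of 1, 5 with no filter, 1 with at least 1 RPKM, 0 with at least 5 RPKM and 1 at 3-fold. The median of these lists was 0.12 as reported, 0.19 with at least 1 RPKM and 0.23 with at least 5 RPKM. By list, the median of ligands and receptors turned from −0.18 to 1.90 with at least 1 RPKM (2 genes), that of negative regulators from 0.25 to −0.38 with at least 5 RPKM (3 genes), and that of Stat3 targets was 0.64 and 0.38 with a pseudocount of 1. The 2 ligand and receptor genes reached 1 RPKM in G34R cells only, so the sign of their median followed from the filter. Fewer genes enter under the stricter filters, and otherwise the cause was not tested. Over all probes, the counts higher and lower were 774 and 1289 as reported, 196 and 356 with a pseudocount of 1, 1445 and 2877 with no filter, 439 and 689 with at least 1 RPKM, and 181 and 239 with at least 5 RPKM.

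Levels per longest protein-coding transcript, an alternative chosen after seeing the data, changed the order of Ptpn11, Stat3, Lifr and Il6st. Culture-to-culture spread cannot be estimated from these libraries.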
